A study of Homo sapiens with 4 samples.

Results

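The genes of tight junctions, desmosomes and cadherin contacts were followed in KYSE30, a long-used human cell line of squamous carcinoma of the esophagus. The members were chosen by symbol: the claudins, desmocollins, desmogleins, plakophilins and ZO proteins, with 14 named genes such as OCLN, CDH1 and EPCAM. This gave 46 of the 30716 genes in the deposited table, 29 of tight junctions, 11 of desmosomes, 5 cadherins and catenins, and EPCAM. RNA-seq was done on 2 libraries of control cells (shNC, a hairpin with no intended target) and 2 of cells whose YY1, a zinc finger transcription factor, was knocked down by short hairpin RNA (shYY1), stable cells having been selected with puromycin. Whether replicates are separate cultures, whether the cells are clones and how many hairpins were used is not in the labels. The p-values therefore set the group difference against the scatter of these 4 samples, pooled in part over genes. That scatter may be technical alone, and loss of YY1 and other effects of the hairpin cannot be told apart.

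Epithelial cells are held together by several kinds of contact. At the tight junction, claudins and the MARVEL proteins (occludin, tricellulin and MARVELD3) form the seal in the membrane, and the ZO scaffold proteins and cingulin tie it to actin and myosin. At the adherens junction, classical cadherins bind the neighbouring cell and are linked to actin through catenins. At the desmosome, desmogleins and desmocollins are joined through plakoglobin, plakophilins and desmoplakin to keratin filaments. EPCAM is an epithelial adhesion protein outside these families.

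Libraries held 67390336 to 72499865 counts. YY1 itself, the check of the labels, had 8147 and 7960 counts in shNC and 2606 and 2344 in shYY1, and a log2 fold change of -1.67 ± 0.088 (SE; edgeR adjusted p = 6.18e-05). Of 7 squamous markers all had counts, and the basal keratin genes KRT5 and KRT14 were at 0.407 and 4.21 CPM (counts scaled to library size) in shNC; KRT8 of simple epithelia was at 6140 CPM. Summed squamous markers were at 441 and 496 CPM in shNC and 570 and 554 CPM in shYY1, and the mitochondrial share of counts was 4.76% and 3.60% against 2.76% and 3.14%. SFN carried most of that sum (324 and 385 CPM, then 448 and 435 CPM); the other 6 squamous markers summed to 117 and 111 CPM in shNC and 121 and 119 CPM in shYY1, and SFN itself did not pass (0.32, edgeR adjusted p = 0.0778). The part of these values in the results was not tested. Retinas are named in the labels' extraction protocol; 2 of 8 retina markers have a row here, and they summed to 0.457 to 1.04 CPM per library. Summed stromal markers were at 4.75 to 7.15 CPM, endothelial ones at 4.25 to 4.87 CPM and immune ones at 4.14 to 6.11 CPM, with PTPRC and CD3E at 0 counts.

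Promoter sequences are shown first, for TJP1 and CGN, which passed the test described below, and for CLDN4, which did not. RefSeq promoter windows (GRCh38.p14, 250 bases before to 50 after a start) were at hand for 33 of the 46 members, 52 windows in all. MARVELD3, which also passed, had no window. YY1 binds sites with a CCAT core, so the windows were searched on both strands for GCCAT and for the longer GCCATNTT, which contains it. GCCAT was in 17 of the 52 windows (32.7%) and in 37.8% of all 35116 windows. Among windows of members with enough counts to be tested it was in 9 of 37 (24.3%). GCCATNTT was in 1 of the 52 (1.92%) and in 6.58% of all. That 1 window belongs to cingulin (CGN), where the match starts 234 bases before the start. None of the 4 TJP1 windows holds either motif, and the 1 with the highest share of G and C (71.3%) is shown beside those of CGN and of CLDN4, the most abundant claudin, with matches in capitals. A match is a description of the letters and not a binding site.

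CGN promoter (chr1:151511137-151511436, plus strand): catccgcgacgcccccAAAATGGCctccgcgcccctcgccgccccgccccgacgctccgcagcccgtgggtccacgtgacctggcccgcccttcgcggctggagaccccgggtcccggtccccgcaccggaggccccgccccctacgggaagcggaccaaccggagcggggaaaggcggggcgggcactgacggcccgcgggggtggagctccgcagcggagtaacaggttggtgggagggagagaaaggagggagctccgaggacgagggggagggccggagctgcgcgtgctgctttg
TJP1 promoter (chr15:29822419-29822718, minus strand): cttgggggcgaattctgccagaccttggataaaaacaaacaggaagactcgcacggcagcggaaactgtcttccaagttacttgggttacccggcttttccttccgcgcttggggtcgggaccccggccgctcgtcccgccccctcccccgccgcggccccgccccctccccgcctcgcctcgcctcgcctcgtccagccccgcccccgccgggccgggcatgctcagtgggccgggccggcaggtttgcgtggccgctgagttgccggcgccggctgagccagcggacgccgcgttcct
CLDN4 promoter (chr7:73830746-73831045, plus strand): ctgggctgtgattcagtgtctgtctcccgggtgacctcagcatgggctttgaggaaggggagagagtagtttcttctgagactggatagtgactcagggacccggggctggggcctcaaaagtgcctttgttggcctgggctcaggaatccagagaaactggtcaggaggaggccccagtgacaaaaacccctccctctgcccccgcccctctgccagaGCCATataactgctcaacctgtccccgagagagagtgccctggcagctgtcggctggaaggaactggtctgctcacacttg

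Measured members ranged from abundant to absent. By mean FPKM, which is scaled to gene length, EPCAM was highest (85.7), followed by plakoglobin (JUP, 79.9), CLDN4 (75.8), CLDN7 (71.8) and alpha-catenin (CTNNA1, 64.1). There were 14 members at 10 FPKM or more and 17 below 1 FPKM. CLDN18, a claudin of stomach and lung, had 0 counts in all libraries. The filter on low counts left 34 members tested, 19 of tight junctions, 9 of desmosomes, all 5 cadherins and catenins, and EPCAM. The 12 members that were not tested are 10 claudins, DSC1 and PKP1.

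Among the 34 tested members 1 gene rose and 3 fell after YY1 knockdown, and all 4 belong to the tight junction. TJP1, a cytoplasmic scaffold gene, fell by the largest amount among the called members, CGN fell by a small amount, and the membrane protein gene MARVELD3 rose. No desmosome gene, cadherin or catenin was called, and neither was EPCAM. The 4 called members are a share close to the background: 9.94% of all 18035 tested genes were called by edgeR's quasi-likelihood test at a Benjamini-Hochberg adjusted p under 0.05, 5.05% higher and 4.90% lower. Of the 19 tight junction genes 15.8% were lower, and their median log2 fold change was -0.06. Over the 34 members the median was 0.01, against -0.01 over all tested genes, and 17 of the 34 were above 0, against 48.8% of all tested genes. In bulk RNA, fewer cells of a type and less RNA per cell cannot be told apart. In 20 of the 34 members the groups did not overlap, against 54.9% of all tested genes.

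**Figure D1:**
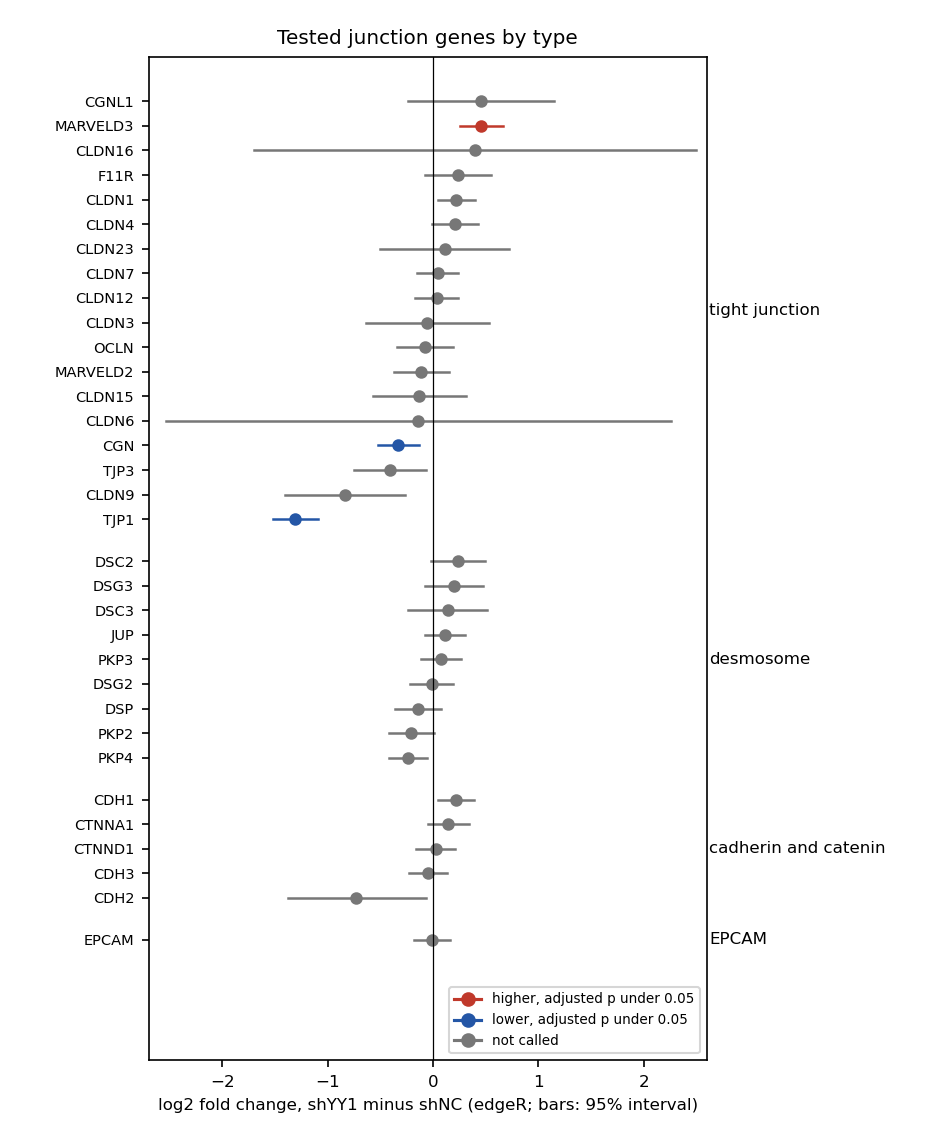
Log2 fold change (shYY1 minus shNC, x axis) of the tested members but 1, grouped by junction type, with the 95% interval from edgeR as a bar. TJP1 and CGN (blue) were called lower and MARVELD3 (red) higher; the intervals of CLDN6 and CLDN16, with at most 18 and 19 counts in a library, are the widest.

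The ZO proteins are scaffolds that bind claudins with one end and actin with the other. TJP1, which encodes ZO-1 (ENSG00000104067, chromosome 15, 29699367 to 29956294, minus strand), had 7316 and 6995 counts in shNC and 3034 and 2612 in shYY1. These are 104 and 97.0 CPM against 43.2 and 38.2 CPM, so both shYY1 libraries lay far below both shNC libraries. The log2 fold change was -1.31 ± 0.0953 (SE; 2.47-fold lower; 95% interval -1.52 to -1.09; edgeR adjusted p = 0.000276). With edgeR, DESeq2 or limma, TJP1 was called under every one of the 15 alternatives run, with log2 fold changes of -1.39 to -1.12. TJP3, the ZO-3 gene, was at 11.8 and 10.8 CPM in shNC and 8.70 and 8.30 CPM in shYY1, without overlap, but did not pass (log2 fold change -0.41, edgeR adjusted p = 0.128). Strand use in the counting is not given. On the other strand APBA3 overlaps TJP3, with 3923 counts in all against 2779 for TJP3 and a log2 fold change of 0.02. HMGN2P5 overlaps TJP1 likewise, with 2607 counts against 19957 and a log2 fold change of 0.10.

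CGN, cingulin, binds ZO proteins and myosin at the cytoplasmic face. It was at 125 and 130 CPM in shNC and 95.5 and 108 CPM in shYY1 (chromosome 1, 151510510 to 151538692). The groups did not overlap, the log2 fold change was -0.33 ± 0.0859, and the edgeR adjusted p of 0.0465 was close to the threshold. Without shYY1 replicate 1 the value was -0.24 (edgeR adjusted p = 0.438), without shYY1 replicate 2 it was -0.41 (0.126), and 3 other alternatives also ended the call. The related CGNL1 was far less abundant, at 2.31 and 1.46 CPM in shNC and 2.51 and 2.66 CPM in shYY1 (log2 fold change 0.46, 95% interval -0.24 to 1.15).

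**Figure D2:**
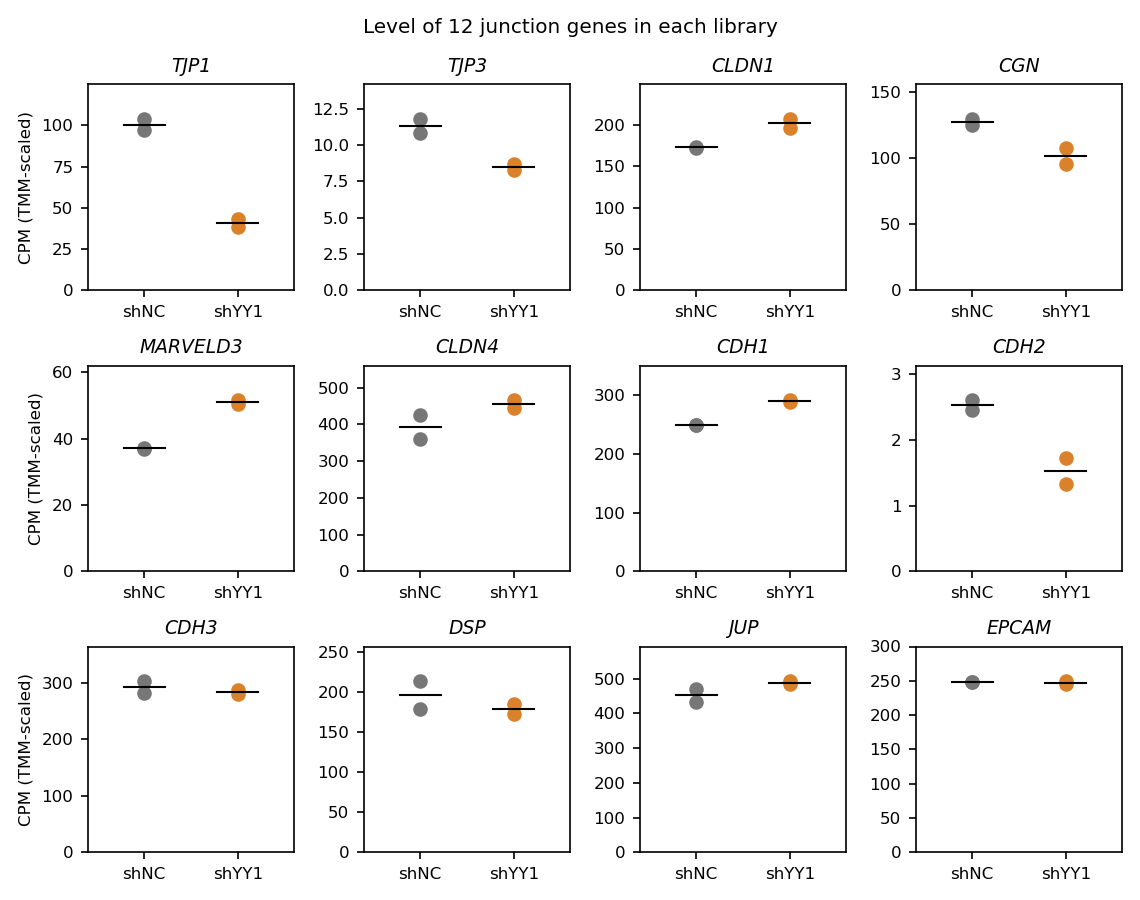
TMM-scaled CPM (y axis, from 0, scale differing by panel) of 12 members in each library, with shNC in grey, shYY1 in orange and a line at each group mean. TJP1 is lower in both shYY1 libraries, MARVELD3 is higher in both, and EPCAM lies between 245 and 250 CPM in all 4.

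The 3' UTRs of some members hold 7-base words that were linked with lower transcripts in an earlier search of these same data, so they are no independent evidence. The words are TTCAGAA and TCAGAAA. Of 9654 genes searched, 30.4% hold at least 1 of them, with a median log2 fold change of -0.11 against 0.07 in genes with neither. Of 27 members searched, 6 hold one, among them TJP1, CGN, CLDN7, DSC2 and F11R. TJP1 and CGN were called lower. DSC2, with 3 matches to the first word and 2 to the second, had a log2 fold change of 0.24. F11R, with 2 matches to the first word, was also at 0.24, and CLDN7 was at 0.05. The median was -0.14 in the 6 members with a word and 0.03 in the searched members with neither. Neither word is in the 3' UTR of TJP3 or MARVELD3. The part of these words in the lower levels was not tested. The sites in TJP1 and CGN are shown in the annotated transcripts (GENCODE 29), with the word in capitals.

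CGN, base 19 of the 3' UTR: cctcaaggacTCAGAAAccaggctcga
TJP1, base 785 of the 3' UTR, where both words overlap: atttggtggtTTCAGAAAtgtgttatca

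Among the MARVEL proteins of the seal, MARVELD3 (chromosome 16, 71626161 to 71642114) was at 37.2 and 37.0 CPM in shNC and 50.4 and 51.7 CPM in shYY1. Replicates lay close together and the groups far apart, with a log2 fold change of 0.46 ± 0.0888 (1.38-fold higher; edgeR adjusted p = 0.0141). With 1 shYY1 library left out the value was 0.48 or 0.44 and the call was lost (edgeR adjusted p = 0.0787 without replicate 1 and 0.112 without replicate 2). Strand use in the counting is not given, and PHLPP2 overlaps MARVELD3 on the other strand; PHLPP2 had a log2 fold change of 0.06. OCLN, occludin, was at 23.3 and 20.3 CPM in shNC and 20.4 and 21.0 CPM in shYY1, and its log2 fold change was -0.08 (95% interval -0.34 to 0.19). MARVELD2, which encodes tricellulin of the corners where several cells meet, had a log2 fold change of -0.11 (-0.37 to 0.15). MARVELD3 thus made up 41.1% and 44.3% of the summed FPKM of these 3 genes in shNC and 51.8% and 52.7% in shYY1.

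F11R, which encodes the junctional adhesion molecule JAM-A, depended on how reads of an overlapping gene were counted. Its own row gave 164 and 182 CPM in shNC and 235 and 174 CPM in shYY1, so that 1 shYY1 library stood apart and the groups overlapped (log2 fold change 0.24 ± 0.136, edgeR adjusted p = 0.33). A same-strand row, AL591806, is described in the table as a readthrough of TSTD1 and F11R. It had 12 and 119 counts in shNC, 173 in shYY1 replicate 1 and 4742 in shYY1 replicate 2, the library in which F11R was lower. With both rows summed, the counts were 11511 and 13281 in shNC and 16700 and 16614 in shYY1, or 164 and 184 against 238 and 243 CPM. The sum did not overlap between groups and rose by 0.46 ± 0.0838 on the log2 scale (edgeR adjusted p = 0.0105). This summing was chosen after the values were seen. The same step for CTNND1 (0.03) left it uncalled.

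Claudins form the strands of the seal, and no claudin passed the test. Of 20 claudin genes with a row, 10 were tested and 0 were called by edgeR, against 9.94% of all tested genes. CLDN1 and CLDN9 were at an unadjusted edgeR p under 0.05, and DESeq2 called the same 2. Of all 18035 tested genes, 2263 were higher and 2262 lower at that unadjusted p. DESeq2 called 21.2% of the 12790 genes to which it gave an adjusted p. CLDN4 was at 361 and 427 CPM in shNC and 467 and 445 CPM in shYY1, just above the shNC range (log2 fold change 0.21, 95% interval -0.01 to 0.43, edgeR adjusted p = 0.222). Without shNC replicate 2, the higher control, it was called at 0.34 (edgeR adjusted p = 0.00464), and without shNC replicate 1 it was at 0.10 (0.311). CLDN7 was at 197 and 223 CPM in shNC and 217 and 216 CPM in shYY1, inside the control range. ELP5 overlaps CLDN7 on the other strand, with 14799 counts in all against 59879 and a log2 fold change of 0.34. CLDN1 was at 172 and 173 CPM in shNC and 207 and 196 CPM in shYY1 (log2 fold change 0.22, edgeR adjusted p = 0.102). The less abundant CLDN9 had 8.91 and 7.39 CPM in shNC and 5.64 and 3.47 CPM in shYY1 (log2 fold change -0.84, 95% interval -1.41 to -0.27, edgeR adjusted p = 0.0687). Without shYY1 replicate 1 it was called at -1.23 (edgeR adjusted p = 0.00601) and without shYY1 replicate 2 it was at -0.53 (0.323); the 5 CPM filter also gave a call (-0.87, 0.0293). Summed over the family, claudins stood at 194 and 205 FPKM in shNC and 218 and 203 FPKM in shYY1. CLDN4 made up 34.7% to 38.1% of that sum, CLDN7 33.4% to 36.4% and CLDN1 19.4% to 21.9% over the 4 libraries.

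**Figure D3:**
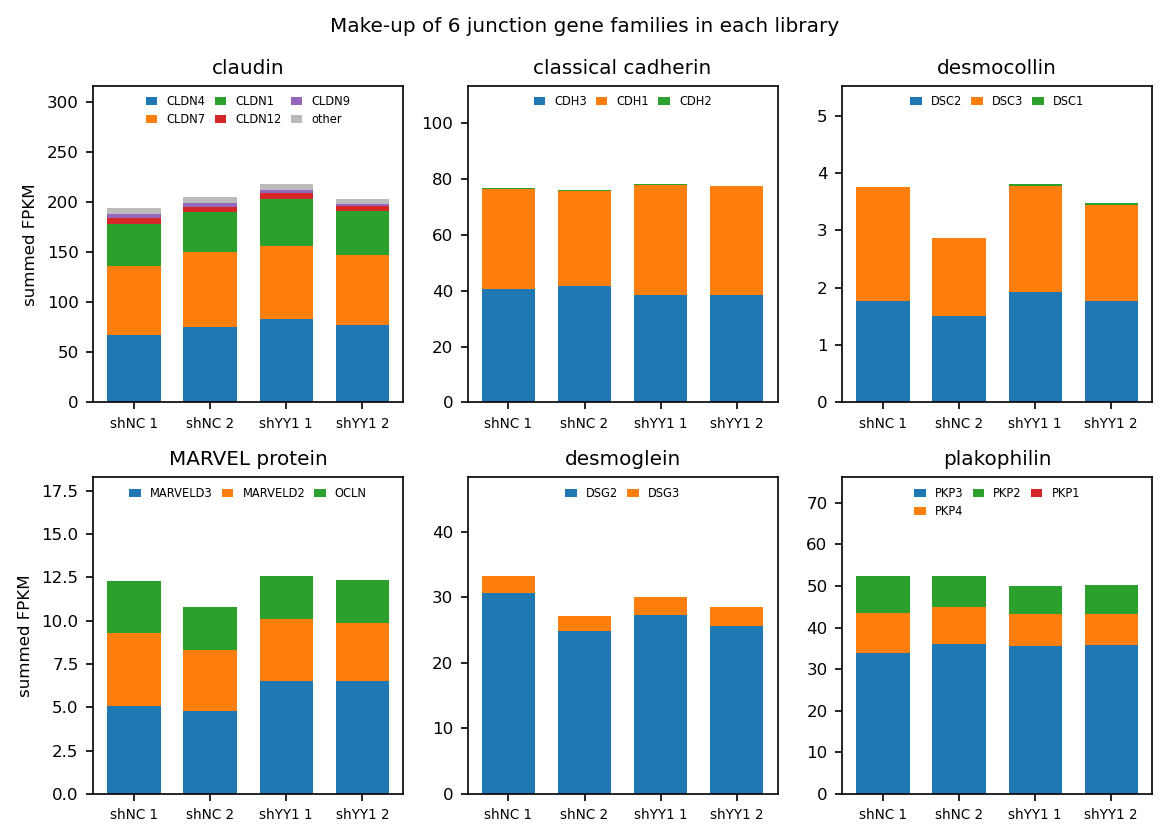
Summed FPKM (y axis, from 0) of 6 junction gene families in each library, stacked by gene. CLDN4, CLDN7 and CLDN1 make up most of the claudin sum, and the sum of the classical cadherins lies between 75.9 and 78.2 FPKM.

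Of the 3 classical cadherins followed, E-cadherin (CDH1) and P-cadherin (CDH3) made up nearly all of the summed FPKM; other cadherins were not in that sum. Of the 5 cadherins and catenins edgeR called 0, against 9.94% of all tested genes. At an unadjusted edgeR p under 0.05 there were 2, against 2263 higher and 2262 lower of all 18035 tested genes. DESeq2 called 1, CDH1, against 21.2% of 12790 genes. CDH1 was at 249 and 250 CPM in shNC and 289 and 292 CPM in shYY1, with no overlap and little spread, but a small difference (log2 fold change 0.22 ± 0.0747, edgeR adjusted p = 0.0983). It was called with 0.22 without shNC replicate 1 (edgeR adjusted p = 0.0342) and with 0.23 without shNC replicate 2 (0.0165), but not with a shYY1 library left out (0.476 and 0.567). CDH3 was at 282 and 303 CPM in shNC and 279 and 287 CPM in shYY1, with overlap. CDH2, the N-cadherin of mesenchymal and neural cells, had 172 and 188 counts in shNC and 121 and 91 in shYY1. At 2.46 and 2.61 against 1.72 and 1.33 CPM its groups did not overlap, and it did not pass (log2 fold change -0.73, 95% interval -1.38 to -0.07, edgeR adjusted p = 0.155). In shares of the summed FPKM, CDH1 went from 46.6% and 44.9% to 50.7% and 50.3%, CDH3 from 53.1% and 54.8% to 49.1% and 49.6%, and CDH2 stayed at 0.331% or less. These shares were not tested. The catenins CTNNA1 (615 and 668 CPM in shNC, 691 and 726 CPM in shYY1) and CTNND1 (559 and 571 CPM, 572 and 578 CPM) had log2 fold changes of 0.14 and 0.03. CTNNA1, the actin link, was called without shNC replicate 2 (0.21, edgeR adjusted p = 0.0246) and was at 0.09 without shNC replicate 1 (0.36).

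No desmosome gene passed the test. Of 9 tested genes edgeR called 0, against 9.94% of all tested genes. At an unadjusted edgeR p under 0.05 there was 1 (PKP4), against 2263 higher and 2262 lower of all 18035 tested genes. DESeq2 called 0 desmosome genes, against 21.2% of 12790 genes. The median log2 fold change of the 9 desmosome genes was 0.08. JUP, the plakoglobin that binds desmosomal cadherins, was at 434 and 471 CPM in shNC and 484 and 494 CPM in shYY1 (log2 fold change 0.11, 95% interval -0.08 to 0.30). Without shNC replicate 2 it was called higher (0.18, edgeR adjusted p = 0.0366) and 3 desmosome genes were called lower, DSP (-0.26), PKP2 (-0.28) and PKP4 (-0.27). In that fit 17.3% of all tested genes were called. Without shNC replicate 1 none of these 4 was called by edgeR, and the values were 0.05 for JUP, 0.00 for DSP, -0.12 for PKP2 and -0.20 for PKP4. DSP, desmoplakin, which anchors keratin, was at 214 and 179 CPM in shNC and 185 and 172 CPM in shYY1, with overlap. Among desmosomal cadherins DSG2 prevailed over the DSG3 of stratified epithelia, with 91.9% and 91.6% of the summed desmoglein FPKM in shNC and 90.9% and 90.3% in shYY1. DSC2 and DSC3 were about equal, with DSC2 at 46.8% to 52.5% of the desmocollin sum. PKP3 was the leading plakophilin at 146 and 164 CPM in shNC and 162 and 167 CPM in shYY1. PKP2 (70.2 and 62.6 CPM, then 56.1 and 59.1 CPM) and PKP4 (107 and 102 CPM, then 88.2 and 88.3 CPM) were lower in both shYY1 libraries without passing, at log2 fold changes of -0.21 and -0.24. PKP4 also belongs to the p120 catenin group and is not confined to desmosomes. PKP1, the plakophilin of the suprabasal epidermis, was near 0, with counts of 0, 14, 7 and 0. EPCAM was at 249 and 248 CPM in shNC and 245 and 250 CPM in shYY1 (log2 fold change -0.01, 95% interval -0.18 to 0.16).

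Genes that work beside these members were followed in 5 further lists, chosen with earlier results of these data known. Of 18 tested genes of the adherens junction outside the members, 6 fell (33.3%, against 4.90% of all tested genes) and 0 rose. None was higher at an unadjusted edgeR p under 0.05, against 2263 of all 18035 tested genes. DESeq2 also called none higher, in a fit that called 21.2% of 12790 genes in either direction. The median log2 fold change of the list was -0.18. VCL, vinculin, which reinforces the link of alpha-catenin to actin, fell from 409 ± 25.7 to 273 ± 8.24 CPM (SD, n = 2 each; log2 fold change -0.58, edgeR adjusted p = 0.00416). The LIM proteins LIMD1 (-0.77) and AJUBA (-0.60) and the alpha-catenin relative CTNNAL1 (-0.52) fell as well, with edgeR adjusted p-values from 0.0044 to 0.0096. The call of CTNNAL1 was lost when shYY1 replicate 2 was left out (-0.43, edgeR adjusted p = 0.0982). CTNNB1, beta-catenin, went from 237 ± 10.2 to 202 ± 3.82 CPM and did not pass (-0.23, edgeR adjusted p = 0.0983).

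Of 30 tested polarity and tight junction adaptor genes, 2 rose (6.67%) and 3 fell (10%), with a median of 0.01. Over all tested genes the shares were 5.05% and 4.90%. AMOTL1, an angiomotin of the junction, rose from 170 ± 4.22 to 259 ± 6.09 CPM (SD, n = 2 each; log2 fold change 0.60, edgeR adjusted p = 0.00243), whereas its relative AMOT fell from 3.01 to 1.37 CPM (-1.14, edgeR adjusted p = 0.0354). AMOT lost the call without shNC replicate 1 (-1.02, edgeR adjusted p = 0.134) and without either shYY1 library. PRKCZ, an atypical protein kinase C of the polarity complex (-0.74, edgeR adjusted p = 0.00738), and YBX3, a transcription factor that binds ZO-1 (-0.44, edgeR adjusted p = 0.00993), also fell. The call of YBX3 was lost with either shYY1 library left out, at edgeR adjusted p-values of 0.128 and 0.148. TJAP1, a tight junction-associated protein, rose (0.36, edgeR adjusted p = 0.034), a call lost in 4 of the 15 alternatives.

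Of 11 tested desmosome-linked and cornified-cell adhesion genes, 1 rose and 1 fell (9.09% each), with a median of 0.18. Over all tested genes the shares were 5.05% and 4.90%. PERP, a membrane protein needed for desmosome assembly in mouse skin, rose from 228 ± 17.0 to 371 ± 6.66 CPM (SD, n = 2 each; log2 fold change 0.70, edgeR adjusted p = 0.00197). CDCP1 was the member that fell (-0.34, edgeR adjusted p = 0.029), a call lost without either shYY1 library. Connexins of gap junctions had 0 calls by edgeR among 10 tested genes, against 9.94% called over all tested genes. At an unadjusted edgeR p under 0.05, 3 connexins were higher, against 2263 of all 18035 tested genes. DESeq2 called 2 connexins higher, in a fit that called 21.2% of 12790 genes in either direction. The median of the connexins was 0.23.

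Of 26 tested regulators of epithelial adhesion, 4 rose (15.4%, against 5.05% of all tested genes) and 0 fell, with a median of 0.14. At an unadjusted edgeR p under 0.05, 1 regulator was lower, against 2262 of all 18035 tested genes. DESeq2 called 0 regulators lower, in a fit that called 21.2% of 12790 genes in either direction. Among the 4 that rose were the transcription factor genes TCF3 (0.69, edgeR adjusted p = 0.00191), KLF4 (0.62, edgeR adjusted p = 0.00423) and SNAI1 (1.26, edgeR adjusted p = 0.0355). SNAI1 encodes Snail, a repressor of CDH1, and averaged 1.14 ± 0.282 CPM (SD, n = 2) in the controls against 2.74 ± 0.116 CPM after knockdown. It lost its call without shNC replicate 2 (1.04, edgeR adjusted p = 0.09), without either shYY1 library and with library totals alone. TCF3 is also known as a repressor of CDH1. Of other such genes, SNAI2 (mean 26.9 CPM in shNC and 23.1 CPM in shYY1), TWIST1 (8.96 and 6.32 CPM) and ZEB1 (0.218 and 0.087 CPM) were not called, and ZEB2 was too low to test.

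**Figure D4:**
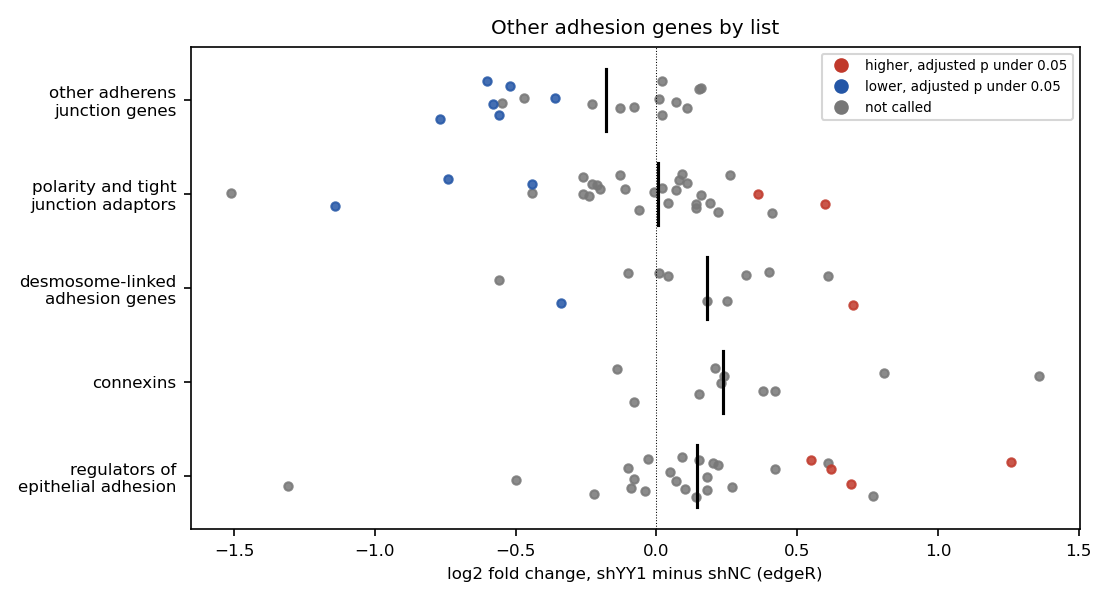
Log2 fold change (shYY1 minus shNC, x axis) of each tested gene in 5 lists of other adhesion genes, with the list median as a black line; red and blue mark genes called higher and lower. The 6 called genes among other adherens junction genes all lie below 0, and the 4 called regulators all lie above 0.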

How the data were processed

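RNA of KYSE30 cells in 4 libraries, 2 with shNC and 2 with shYY1, was grouped by sample title. The authors deposited 1 table with whole-number counts per gene, and also FPKM values per gene (scaled to gene length and library total). Bowtie 0.12.2, mm8 and mm9 are named in the submitters' processing notes; the builds are of mouse and cannot describe a human table, whose aligner, counter, build and strand setting were not given in the sources used. All 46 members lie on the same chromosome in GENCODE 29 (GRCh38), 22 of them with the same start and end. 0 columns belonged to other samples.

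Counts were tested for all genes with edgeR 4.0.16 (R 4.3.3; quasi-likelihood, robust, TMM factors of 0.98 to 1.04, filterByExpr with a minimum count of 10 and total of 15; 2 residual degrees of freedom) with Benjamini-Hochberg adjustment over 18035 genes. The script was first tested on simulated data. Alternatives used DESeq2 1.42.0, limma 3.58.1, other scalings and filters, FPKM with pseudocounts of 1 and 0.1, left-out libraries and a replicate block. Standard errors are the log2 fold change over the square root of F. A count of 3 was 0.0416 to 0.0439 CPM with TMM scaling, and the ratios for DSC1 and CLDN11 used the group mean of it as a floor. Such floors cover counting error only, and only in the group at 0. All lists, members and the 3' UTR words were chosen with earlier results of these data known. Given with values in every library are members that were called, the 2 most abundant of each type, all cadherins and EPCAM; others, F11R among them, were picked with their values known. Each further list gives at most 4 called genes, by smallest adjusted p, plus at most 2 going the other way. The 3' UTR search took the GENCODE 29 basic transcript with the longest coding sequence, 3' UTRs of 50 bases or more and genes at 5 CPM or more. Some members and list genes stay in all fits and counts but are not reported here by name.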

Additional observations from a re-analysis of the deposited data

How the results depend on the processing

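The counts of called members (1 higher, 3 lower) stood under RLE factors, library totals and both FPKM scales; 1 or both moved under every other setting, to 2 lower with no low-count filter, limma-trend on log2 CPM and no robust estimation. DESeq2's Wald test called 3 members higher (2 of tight junctions, 1 cadherin) and 4 lower, a fit in which 21.2% of 12790 genes were called. Summing overlapping rows, added after seeing the data, gave 2 higher (both of tight junctions). A filter of 5 CPM in 2 libraries gave 5 members lower, 1 of them (PKP4) of desmosomes, a fit in which 22.5% of all genes tested were called. With 1 library left out, 0 to 6 members were higher (tight junction 0 to 3, desmosome 0 to 1, cadherins and catenins 0 to 2) and 2 to 6 lower (tight junction 2 to 3, desmosome 0 to 3), the highest without shNC replicate 2. Such fits have 1 library in a group, which is assumed to vary like the others. Over all genes, 910 higher and 883 lower became 1470 higher with DESeq2 and 425 to 2097 higher with 1 library left out.

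The replicate numbers are not said to mark a shared batch, and the correlation of replicate differences between the groups was 0.00395. With the replicate block 1 member was higher and 4 were lower (CLDN9 added), and 1475 genes were higher and 1427 lower over all genes.

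Some members near 0 changed sign. CLDN7 did so with library totals alone (-0.0014), on log2(FPKM + 1) (-0.0034) and log2(FPKM + 0.1) (-0.0035) and with 1 library left out (-0.04 to 0.15). PKP3 did so with 1 library left out (-0.00014 to 0.17), and so did CDH3 (-0.10 to 0.01). CTNND1 changed sign with library totals (-0.02), the 5 CPM filter (-0.0041) and both FPKM scales (-0.03), and EPCAM without shYY1 replicate 1 (0.01). Other members changed sign with 1 library left out. Among them were OCLN (0.03) and DSG2 (0.10) without shNC replicate 1, and DSC3 (-0.08) without shNC replicate 2. Of the other lists, polarity genes called lower went from 3 to 5 with library totals and the block, and to between 1 and 5 with 1 library left out, and adherens junction genes from 6 to 3 without shYY1 replicate 2. The low counts of CDH2 (91 to 188 a library) limit its precision, and its interval was -1.38 to -0.07.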

Other observations

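Several members are neighbours in the genome, in the coordinates of the deposited table. CDH3 and CDH1 lie 37.0 kb apart on chromosome 16 with no other row between them, and their log2 fold changes were -0.05 and 0.22. MARVELD2 and OCLN are 48.0 kb apart on chromosome 5, at -0.11 and -0.08. CLDN3 and CLDN4, 29.3 kb apart on chromosome 7 on opposite strands, differed in level by far, at 2.94 and 75.8 mean FPKM. The desmosomal cadherins DSC3, DSC2, DSC1, DSG3 and DSG2 stand in 1 cluster on chromosome 18. Their tested members had log2 fold changes between -0.01 and 0.24.

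DSC1, the desmocollin of the upper epidermis, had 0 counts in both shNC libraries and 9 and 13 in shYY1. The shYY1 mean was 3.77 times a floor of 3 counts per shNC library, and the error of that mean is not in this ratio. DSCAS overlaps DSC1 on the other strand, with 4 and 7 counts in shNC and 0 and 5 in shYY1. CLDN11 had 10 and 4 counts in shNC and 0 in both shYY1 libraries, and its shNC mean was 2.29 times a floor of 3 counts per shYY1 library. DSC1 and CLDN11 were below the filter of the main fit and were not tested there. With no low-count filter edgeR called neither, at adjusted p-values of 0.236 for DSC1 and 0.402 for CLDN11. They were picked with their values known.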
